A study of Mus musculus with 6 samples.

Results

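The genes examined here encode the SR, hnRNP and RBM proteins, RNA-binding proteins that steer the splicing of pre-mRNA. They were the protein-coding genes whose symbols begin with Srsf and a digit, with Hnrnp, or with Rbm and a digit or x, other than 4 genes (Rbm15, Rbm15b, Hnrnpa2b1 and Hnrnpc) left out by name. The rule reads symbols and uses no measured value, but the set was chosen with earlier results of these data known. It gave 70 of the 55703 genes in the table, namely 11 SR, 18 hnRNP and 41 RBM genes.

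RNA from interscapular brown adipose tissue (iBAT) was profiled in 6 libraries from 8-week-old C57BL/6 mice. The 3 Wtap-BKO libraries came from mice with the genotype WTAPflox/flox UCP1-iCre+/-, and the 3 Wtap flox/flox libraries from WTAPflox/flox mice without the Cre. Both groups therefore carried floxed Wtap alleles. The iCre was inserted into the Ucp1 gene, so recombination follows Ucp1 transcription, which marks thermogenic adipocytes, while the other cells of the fat pad keep Wtap. Wtap flox/flox mice without the Cre were the only controls in these files, and the libraries are described as biological replicates.

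WTAP is a subunit of the nuclear complex that writes N6-methyladenosine on mRNA, and it is found in nuclear speckles, where splicing factors also gather. SR proteins carry an RNA recognition motif and an arginine- and serine-rich domain, bind exonic enhancers and recruit the spliceosome, whereas hnRNP proteins coat nascent transcripts and often block the use of a splice site. RBM is a naming family rather than a pathway, and its members range from spliceosome subunits to proteins of RNA decay and ribosome assembly. Many SR and hnRNP genes limit their own output by splicing in an exon that sends the transcript to nonsense-mediated decay.

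The libraries held 15979694 to 19005123 reads assigned to genes, a similar depth in all 6. The 10 brown adipocyte markers were present in every library, with a sum, made up mostly of Cox8b, Cidea and Ucp1, of 2994 to 4167 FPKM (fragments scaled by gene length and, here, by median-of-ratios factors between libraries) in Wtap-BKO iBAT and 5728 to 7744 FPKM in Wtap flox/flox iBAT. Ucp1 itself was at 293, 495 and 287 FPKM in the Wtap-BKO libraries, against 1650, 2072 and 1586 FPKM in the Wtap flox/flox libraries, and was the only marker of the 10 called lower (limma). None was called higher, although Prdm16, Otop1 and Elovl3 had every Wtap-BKO library above every Wtap flox/flox library (adjusted p = 0.130, 0.121 and 0.052, limma). Wtap averaged 12.3 ± 0.46 FPKM where the label is Wtap-BKO and 8.26 ± 0.33 FPKM in Wtap flox/flox (SD, n = 3 each; limma, adjusted p = 0.016), higher in the knockout. A value for the whole gene does not show whether the floxed exon was lost, so it gives no check of the labels. Wtap-BKO replicate 3 and Wtap flox/flox replicate 2 held skeletal muscle transcripts, with 1540 and 946 summed FPKM over 14 muscle markers, against 31.8 to 48.0 FPKM in the other 4 libraries.

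Of the 70 genes, 60 passed a filter of at least 0.5 FPKM and 10 reads on average over all 6 libraries and were tested. Across all 13507 genes tested with limma, calls required an adjusted p under 0.05. Among the splicing regulators 5 were lower in Wtap-BKO iBAT (Srsf10, Srsf7, Hnrnph3, Rbmx and Rbm5) and 1 was higher (Rbm47). That is 8.33% lower, against 3.88% of all tested genes, and 1.67% higher, against 6.1% of all tested genes. The mean FPKM of the called genes that fell changed by -38.9% to -24.1%. The remaining 54 genes were not called, and the 95% intervals of several of them still exclude 0. Without both libraries that held muscle transcripts limma called 0 of all 13483 genes. At an unadjusted p under 0.05 (limma), that fit gave 7 lower and 1 higher among the 60, and 2253 of all genes in either direction. The log2 changes of the 5 genes called lower then ran from -0.74 to -0.40, against -0.72 to -0.39 in all 6 libraries. Scaling by library size alone left none of the 5 lower calls, with log2 changes of -0.64 to -0.31.

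The direction was uneven over the whole set. The log2 change, Wtap-BKO minus Wtap flox/flox on the log2(FPKM + 0.1) scale, was below 0 for 44 of the 60 tested genes, or 73.3%, against 50.4% of all tested genes. The median log2 change was -0.18, against 0.00 over all tested genes. For 25 of the 60 every Wtap-BKO library lay below every Wtap flox/flox library, a pattern held by 16.9% of all tested genes, and for 4 every Wtap-BKO library lay above, against 18.2%. Under scaling by library size alone, which moved the median of all genes up by 0.08, 38 of the 60 were below 0, against 41.6% of all genes.

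**Figure D1:**
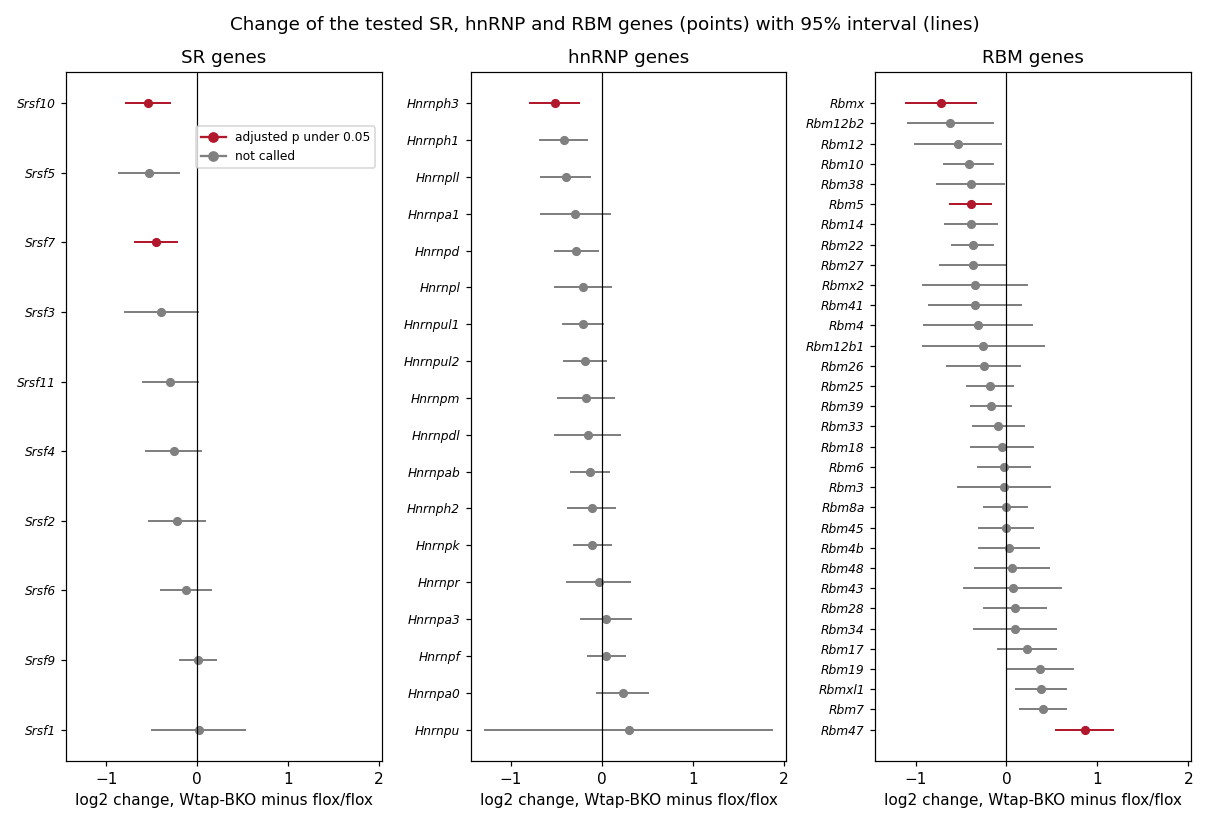
Log2 change of each of the 60 tested genes, Wtap-BKO minus Wtap flox/flox (x axis, on the log2(FPKM + 0.1) scale), by family and ordered by change; points are the estimates from 3 libraries a group, lines the 95% intervals, and red marks an adjusted p under 0.05. Most points of each family lie left of 0, while Rbm47 stands farthest to the right and Hnrnpu has the widest interval.

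Promoter sequences of called genes that fell are shown to give their sequence context. The RefSeq table (GRCm38.p6) gives windows of 250 bases before to 50 after a gene's start, and 52 of the 60 tested genes matched it, with 69 windows. Printed 5′ to 3′ on the strand of the gene are 3 windows whose start lies within 6 bases of the gene start in the deposited table, those of Srsf7 (chr17:80207256-80207555, minus strand), Rbmx (chrX:57392987-57393286, minus strand) and Rbm5 (chr9:107770953-107771252, minus strand). Capitals mark matches, on either strand, to the letters GGGCGG for the GC box, CCAAT for the box named after it, CCGGAAG as the core bound by ETS factors and TGACGT as the core of the cAMP response element, and none of the marked matches overlap.
Srsf7: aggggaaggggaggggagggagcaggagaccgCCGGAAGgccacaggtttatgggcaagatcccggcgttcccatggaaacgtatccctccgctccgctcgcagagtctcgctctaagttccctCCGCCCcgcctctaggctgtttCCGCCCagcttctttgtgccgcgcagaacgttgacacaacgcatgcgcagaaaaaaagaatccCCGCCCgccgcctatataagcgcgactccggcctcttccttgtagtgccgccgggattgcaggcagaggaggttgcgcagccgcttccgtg
Rbmx: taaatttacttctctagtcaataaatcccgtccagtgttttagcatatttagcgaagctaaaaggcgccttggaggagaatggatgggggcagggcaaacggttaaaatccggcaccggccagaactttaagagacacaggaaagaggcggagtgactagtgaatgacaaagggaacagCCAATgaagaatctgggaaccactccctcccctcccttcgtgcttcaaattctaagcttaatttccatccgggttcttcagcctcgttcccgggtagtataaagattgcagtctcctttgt
Rbm5: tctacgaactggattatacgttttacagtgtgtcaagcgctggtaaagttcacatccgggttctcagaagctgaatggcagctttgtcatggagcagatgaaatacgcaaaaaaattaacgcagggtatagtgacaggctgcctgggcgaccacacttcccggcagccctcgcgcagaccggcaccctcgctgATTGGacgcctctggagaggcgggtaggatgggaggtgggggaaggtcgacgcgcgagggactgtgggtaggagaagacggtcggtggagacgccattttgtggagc

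The 3 windows differ in base content. The Srsf7 window has 62.7% G or C and 28 CpG, with 3 GC boxes and 1 ETS core. The Rbmx window has 47.0% G or C, 11 CpG and a CCAAT box, and the Rbm5 window has 56.3% G or C, 21 CpG and a CCAAT box on the opposite strand, and neither holds the GC box letters. Over the 69 windows of tested members, 65.2% held a GC box, against 35.7% of the 32851 windows of the whole table. The CCAAT box was in 46.4%, against 37.4%, the ETS core in 21.7%, against 8.86%, and TGACGT in 20.3%, against 7.51%. The table includes noncoding and silent genes, and several windows can belong to the same gene, so these shares are descriptions.

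The SR genes were the family with the lowest median log2 change, -0.28 over 10 tested genes, of which 2 were called lower, or 20%, against 3.88% of all tested genes, and 8 were below 0, or 80.0%, against 50.4%. Summed over the family they gave 232.4, 202.8 and 193.4 FPKM in Wtap-BKO replicates 1 to 3, against 286.3, 255.9 and 246.1 FPKM in Wtap flox/flox replicates 1 to 3. Every Wtap-BKO sum lay below every Wtap flox/flox sum. The mean sum was 209.5 ± 20.4 FPKM in Wtap-BKO and 262.8 ± 21.0 FPKM in Wtap flox/flox (SD, n = 3 each), a difference of -20.3% for which no test was made. A sum weighs abundant genes most, and Srsf5, which was not called, averaged 54.1 FPKM in Wtap-BKO and 78.2 FPKM in Wtap flox/flox. The sums of all 3 families use the deposited scaling only.

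Srsf10 (chr4:135855747-135869908), an SR protein that acts as a repressor when dephosphorylated and is known to take part in mouse adipocyte differentiation, was at 11.7, 10.9 and 10.5 FPKM in the Wtap-BKO libraries, against 14.7, 17.0 and 16.5 FPKM in Wtap flox/flox. The groups did not overlap. It fell by 0.54 on the log2 scale (SE 0.10, limma, adjusted p = 0.025). Srsf7 (chr17:80200080-80207307), which also hands spliced mRNA to the nuclear export receptor, was at 13.2, 12.7 and 12.3 FPKM in Wtap-BKO, against 18.9, 17.1 and 16.2 FPKM in Wtap flox/flox. The Wtap-BKO libraries were tightly spaced and all lay below the lowest control. Srsf7 fell by 0.45 on the log2 scale (SE 0.10, limma, adjusted p = 0.035). Leaving out 1 library at a time kept the direction of both genes, but Srsf10 kept its call only without Wtap-BKO replicate 1 and Srsf7 in none of the 6 fits (largest adjusted p 0.097 and 0.115, limma).

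Srsf5 had the highest level of all 70 genes. It was at 60.8, 54.5 and 47.0 FPKM in Wtap-BKO, against 90.3, 72.7 and 71.5 FPKM in Wtap flox/flox. The groups did not overlap, yet the controls were spread, and the log2 change of -0.53 (SE 0.14) did not pass the test (limma, adjusted p = 0.059). Srsf2, a core speckle protein, averaged 46.2 ± 4.7 FPKM in Wtap-BKO and 54.0 ± 7.1 FPKM in Wtap flox/flox, with overlapping groups. Srsf3, which links splicing to export, averaged 13.2 ± 2.0 FPKM in Wtap-BKO and 17.3 ± 2.9 FPKM in Wtap flox/flox, also overlapping. At the other end, Srsf9 averaged 20.8 ± 0.74 FPKM in Wtap-BKO and 20.6 ± 0.41 FPKM in Wtap flox/flox, with a 95% interval of the log2 change of -0.19 to 0.21.

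Srsf1, the founding SR protein, was listed at 0.66 to 0.82 FPKM in Wtap-BKO and 0.71 to 0.80 FPKM in Wtap flox/flox, far under its relatives. The reason for so low a level was not tested. Srsf4 averaged 5.41 ± 0.70 FPKM in Wtap-BKO and 6.46 ± 0.33 FPKM in Wtap flox/flox, and 43.0% of its exon bases overlap exons of other genes on either strand. Srsf12 was near 0.

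**Figure D2:**
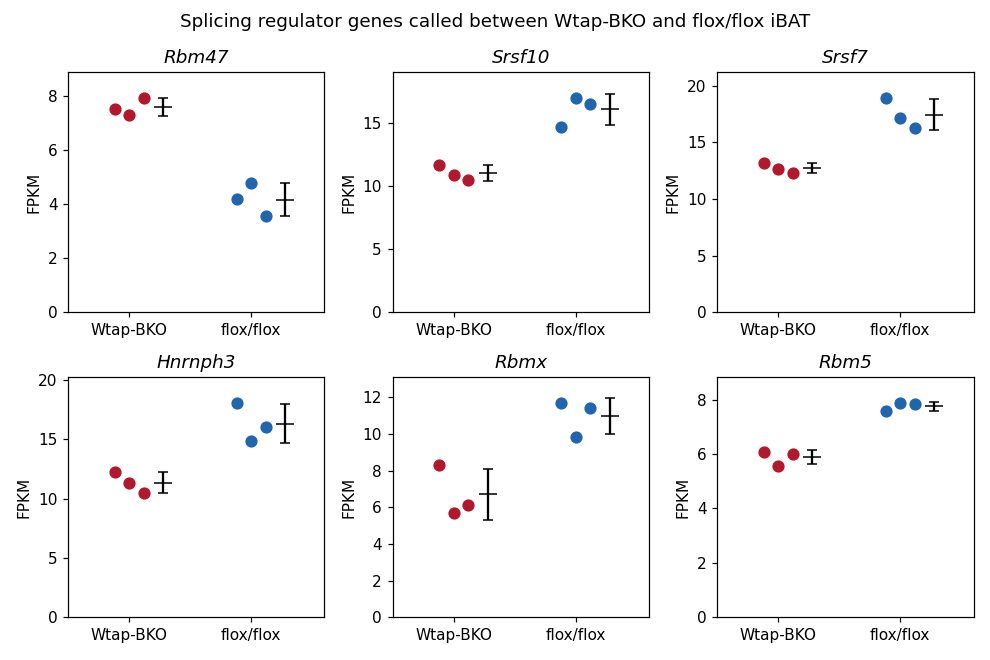
FPKM of the 6 called genes in each library (points), with the mean and SD beside each group of 3 (black); Wtap-BKO is left of Wtap flox/flox and axes start at 0. The groups do not overlap for any of the 6 genes, and Rbm47 alone is higher in Wtap-BKO. The genes were picked by a test of these same values, so the separation adds no support to their calls. Of all tested genes 18.2% had every Wtap-BKO library above and 16.9% below.

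All 18 hnRNP genes passed the filter. Of these 1 was called lower and none higher (limma; at an unadjusted p under 0.05, 4 lower and 0 higher), with a median log2 change of -0.17 and 14 below 0, or 77.8%, against 50.4% of all tested genes. The share called lower, 5.56%, lay near the 3.88% of all tested genes. At an unadjusted p under 0.05 (limma), 1781 of all 13507 tested genes were lower and 2116 higher. Their summed level was 374.5 ± 17.0 FPKM in Wtap-BKO and 413.1 ± 22.6 FPKM in Wtap flox/flox (SD, n = 3 each), a difference of -9.37%, with no test made.

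The F and H type proteins bind runs of G. Hnrnph3 (chr10:63014664-63024217) was at 12.2, 11.3 and 10.5 FPKM in Wtap-BKO, against 18.1, 14.8 and 16.0 FPKM in Wtap flox/flox. All Wtap-BKO libraries were below all controls. It fell by 0.52 on the log2 scale (SE 0.11, limma, adjusted p = 0.036), and it kept its call in 1 of the 6 fits that left out a library, that without Wtap-BKO replicate 1 (largest adjusted p 0.114). Hnrnph1, its more abundant paralog, averaged 33.5 ± 1.80 FPKM in Wtap-BKO and 45.0 ± 4.73 FPKM in Wtap flox/flox. Its groups did not overlap either, and the log2 change of -0.42 (SE 0.11) stood just outside the threshold (limma, adjusted p = 0.055). Hnrnph2 averaged 14.7 ± 0.65 FPKM in Wtap-BKO and 15.9 ± 1.70 FPKM in Wtap flox/flox. Hnrnpf averaged 36.3 ± 1.78 FPKM in Wtap-BKO and 35.1 ± 0.66 FPKM in Wtap flox/flox, and 49.4% of its 100-base exon windows occur in other annotated genes, so its level is uncertain.

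Among the A/B and D types 0 of 6 were called (limma; at an unadjusted p under 0.05, 1 lower, against 1781 of all 13507). Hnrnpab, also known as CArG-binding factor A, was at 40.9, 42.3 and 38.7 FPKM in Wtap-BKO, against 47.0, 42.6 and 43.9 FPKM in Wtap flox/flox, a difference of -8.70% in the mean. Hnrnpd (AUF1), a protein of AU-rich mRNA decay, averaged 5.73 ± 0.24 FPKM in Wtap-BKO and 6.97 ± 0.46 FPKM in Wtap flox/flox (log2 change -0.28, SE 0.10, limma, adjusted p = 0.129). Hnrnpa0 went the other way in the mean, at 45.5 ± 5.5 FPKM in Wtap-BKO and 38.7 ± 3.0 FPKM in Wtap flox/flox, where the groups overlap. Hnrnpa1 was at 43.7, 28.7 and 35.1 FPKM in Wtap-BKO, against 44.1, 40.1 and 45.6 FPKM in Wtap flox/flox, with the second Wtap-BKO library lowest, and 25.9% of its windows are shared with other genes.

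Of the K, L, M, R and U types 0 of 8 were called (limma; at an unadjusted p under 0.05, 1 lower, against 1781 of all 13507). Hnrnpk, a poly-C-binding protein, averaged 34.1 ± 1.57 FPKM in Wtap-BKO and 36.7 ± 1.25 FPKM in Wtap flox/flox. Hnrnpll, known for exon exclusion in Ptprc in lymphocytes, averaged 3.17 ± 0.24 FPKM in Wtap-BKO and 4.20 ± 0.18 FPKM in Wtap flox/flox, with no overlap (log2 change -0.40, SE 0.11, limma, adjusted p = 0.073). Hnrnpl, its closest paralog, averaged 31.9 ± 4.13 FPKM in Wtap-BKO and 36.8 ± 3.77 FPKM in Wtap flox/flox, and these groups overlapped.

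Hnrnpu, a nuclear scaffold protein, had the lowest mean level of the hnRNP genes. How reads that match several genes were counted is not known here, and 5.14% of its 100-base windows occur in another gene. The reason for the low level was not tested, and the level remains uncertain. Hnrnpu was at 0.80, 0.65 and 4.10 FPKM in Wtap-BKO replicates 1 to 3, against 0.83, 1.73 and 0.81 FPKM in Wtap flox/flox replicates 1 to 3. The high values fell in the same libraries as the skeletal muscle transcripts, and the 95% interval of its log2 change ran from -1.28 to 1.87. Rbm24, an RBM protein of muscle splicing, was also highest in Wtap-BKO replicate 3 and next in Wtap flox/flox replicate 2, at 0.08, 0.13 and 1.39 FPKM in Wtap-BKO, against 0.17, 0.37 and 0.09 FPKM in Wtap flox/flox. The part of the muscle transcripts in these values was not tested.

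**Figure D3:**
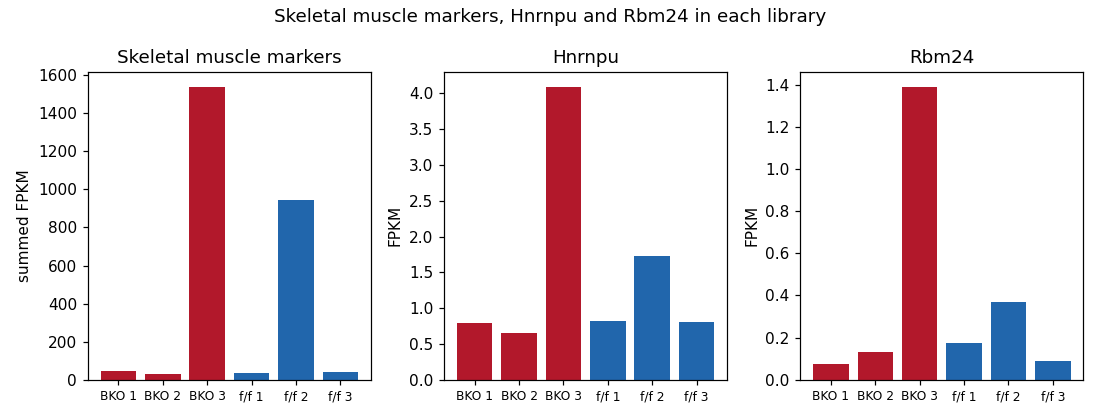
Summed FPKM of 14 skeletal muscle markers and FPKM of Hnrnpu and Rbm24 in each library (bars; Wtap-BKO, BKO, in red and Wtap flox/flox, f/f, in blue; y axes start at 0). Wtap-BKO replicate 3 is highest and Wtap flox/flox replicate 2 second in all 3 panels. Both genes were picked after their values were seen.

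Of the 41 RBM genes 32 were tested, with 2 called lower, or 6.25%, against 3.88% of all tested genes, and 1 called higher, or 3.12%, against 6.1%. The median log2 change was -0.13, and 22 were below 0, or 68.8%, against 50.4%. Their summed level was 218.1 ± 5.55 FPKM in Wtap-BKO and 231.7 ± 10.1 FPKM in Wtap flox/flox (SD, n = 3 each), a difference of -5.84%, with no test made. Of the 11 tested genes of the spliceosome and exon junction complex, 1 was called lower, or 9.09%, against 3.88% of all tested genes. In this group 9 were below 0, or 81.8%, against 50.4%.

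**Figure D4:**
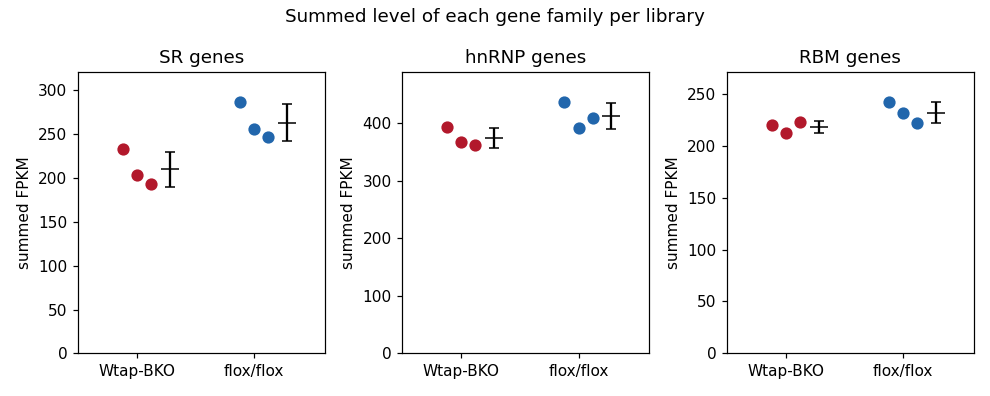
Summed FPKM of the SR, hnRNP and RBM genes in each library (points), with mean and SD beside each group of 3; Wtap-BKO is left of Wtap flox/flox and axes start at 0. The SR sums do not overlap between groups and differ by -20.3% in the mean, against -9.37% and -5.84% for the hnRNP and RBM sums. The sums use the deposited scaling only and weigh abundant genes most.

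Rbm5 (chr9:107740371-107770996), a spliceosome-bound regulator of exon choice in apoptosis genes such as FAS in human cells, was at 6.07, 5.58 and 6.02 FPKM in Wtap-BKO, against 7.56, 7.88 and 7.83 FPKM in Wtap flox/flox. Both groups were tight and did not overlap. It fell by 0.39 on the log2 scale (SE 0.09, limma, adjusted p = 0.046), and the call was lost in all 6 fits that left out a library (largest adjusted p 0.146). Its paralog Rbm10 averaged 10.4 ± 0.78 FPKM in Wtap-BKO and 13.9 ± 1.35 FPKM in Wtap flox/flox, without overlap (log2 change -0.42, limma, adjusted p = 0.063). Its neighbour on the chromosome, Rbm6, averaged 3.63 ± 0.38 FPKM in Wtap-BKO and 3.69 ± 0.16 FPKM in Wtap flox/flox, a change of -0.03 with a 95% interval of -0.31 to 0.26.

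Rbm22, which sits at the catalytic centre of the spliceosome, averaged 5.06 ± 0.21 FPKM in Wtap-BKO and 6.58 ± 0.12 FPKM in Wtap flox/flox, with no overlap (log2 change -0.37, SE 0.10, limma, adjusted p = 0.055). Rbm39, a relative of the U2AF large subunit and the most abundant RBM gene, was at 32.5, 31.2 and 29.8 FPKM in Wtap-BKO, against 37.5, 34.5 and 33.3 FPKM in Wtap flox/flox. The groups did not overlap but lay close (log2 change -0.17, limma, adjusted p = 0.273). Rbm17 averaged 19.9 ± 0.75 FPKM in Wtap-BKO and 17.1 ± 2.77 FPKM in Wtap flox/flox, and Rbm8a, a core subunit of the exon junction complex, averaged 9.76 ± 0.65 FPKM in Wtap-BKO and 9.79 ± 0.48 FPKM in Wtap flox/flox. Rbm42 was near 0, and 75.4% of its exon bases overlap another gene on the same strand, so its reads could not be assigned to it alone.

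Among the tissue- and stress-linked RBM genes the called members went opposite ways. Rbmx (chrX:57383530-57393036), also called hnRNP G, was at 8.30, 5.68 and 6.11 FPKM in Wtap-BKO, against 11.7, 9.83 and 11.4 FPKM in Wtap flox/flox. The first Wtap-BKO library lay nearest to the controls, and the groups did not overlap. Rbmx fell by 0.72 on the log2 scale (SE 0.16, limma, adjusted p = 0.039), the largest fall among the tested splicing regulators, and kept its call only in the fit without that first library (largest adjusted p 0.124). Its retrogene relative Rbmxl1 was at 10.98, 13.2 and 12.4 FPKM in Wtap-BKO, against 10.03, 8.51 and 9.45 FPKM in Wtap flox/flox (log2 change 0.38, SE 0.11, limma, adjusted p = 0.082). The estimates had opposite signs, though the difference between the genes was not tested, and 60.0% of the Rbmxl1 windows occur in other annotated genes, so its reads are uncertain.

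Rbm47 (chr5:66016549-66173118), an RNA-binding cofactor of APOBEC1 in C-to-U editing of mRNA, was at 7.54, 7.32 and 7.95 FPKM in Wtap-BKO, against 4.18, 4.78 and 3.55 FPKM in Wtap flox/flox. Each Wtap-BKO library exceeded the highest control by a wide margin. Its level was 1.82-fold higher (log2 change 0.86, SE 0.13, limma, adjusted p = 0.014), the largest change in either direction among the tested splicing regulators. The call was lost without Wtap flox/flox replicate 1 (adjusted p = 0.058) and without Wtap-BKO replicate 3 (adjusted p = 0.053). Of 7 macrophage markers tested 3 were called higher (Csf1r, Cd14 and Mrc1). The macrophage sums, mostly Lyz2, which was not called, were 142 to 210 FPKM in Wtap-BKO and 94.4 to 141 FPKM in Wtap flox/flox, nearly touching. Fibroblast marker sums were 193 to 303 FPKM in Wtap-BKO and 145 to 176 FPKM in Wtap flox/flox, with 1 of 6 called higher (Dpt). General adipocyte sums were 4262 to 4752 FPKM in Wtap-BKO and 3805 to 4063 FPKM in Wtap flox/flox, with 1 of 7 called higher (Adipoq). Endothelial sums overlapped, at 148 to 268 and 205 to 279 FPKM. Lymphocyte sums also overlapped, at 2.18 to 3.81 and 3.57 to 5.62 FPKM, with 1 of 3 tested called lower. The part of any of these cell types in the Rbm47 result was not tested. In bulk tissue a change in the number of cells of a type and a change in RNA per cell cannot be told apart.

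Rbm38, a p53 target that binds mRNA in splicing and stability, was the most abundant gene of this group, at 12.3, 16.7 and 17.8 FPKM in Wtap-BKO, against 22.3, 20.2 and 18.6 FPKM in Wtap flox/flox. The groups were separate but the third libraries lay close (log2 change -0.40, SE 0.16, limma, adjusted p = 0.153). Rbm3, the cold-inducible member, was at 15.4, 13.2 and 12.7 FPKM in Wtap-BKO, against 19.6, 11.9 and 11.6 FPKM in Wtap flox/flox, and only the first control stood high. Its interval of -0.53 to 0.48 leaves changes of either sign possible. Rbm4 averaged 0.55 ± 0.05 FPKM in Wtap-BKO and 0.71 ± 0.12 FPKM in Wtap flox/flox and shares 60.5% of its exon bases with another gene on the same strand. Rbm20, the titin splicing regulator of heart, was at 0.23, 0.38 and 0.61 FPKM in Wtap-BKO, against 0.50, 0.51 and 0.60 FPKM in Wtap flox/flox, and was not tested. Unlike Rbm24, its second highest value was in Wtap flox/flox replicate 3, not in replicate 2.

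The RBM genes of other RNA processing had 0 of 14 calls (limma). At an unadjusted p under 0.05 (limma), 2 were higher and 4 lower, against 2116 higher and 1781 lower of all 13507 tested genes. Rbm7, the RNA-binding subunit of the nuclear exosome targeting complex, was at 12.9, 13.5 and 14.8 FPKM in Wtap-BKO, against 11.1, 10.6 and 9.42 FPKM in Wtap flox/flox. The groups did not overlap (log2 change 0.40, SE 0.11, limma, adjusted p = 0.061). Rbm19, a nucleolar protein of ribosome assembly, averaged 2.33 ± 0.34 FPKM in Wtap-BKO and 1.77 ± 0.12 FPKM in Wtap flox/flox, also without overlap. Rbm28 and Rbm34, also nucleolar, both had a change of 0.09, with overlapping groups. Rbm14, a paraspeckle protein, averaged 5.13 ± 0.52 FPKM in Wtap-BKO and 6.74 ± 0.54 FPKM in Wtap flox/flox (log2 change -0.39, limma, adjusted p = 0.090). Of the Rbm14 exon bases 18.6% overlap other genes on the same strand. Rbm12b2 averaged 1.58 ± 0.14 FPKM in Wtap-BKO and 2.53 ± 0.61 FPKM in Wtap flox/flox, and since 50.4% of its windows also occur in other genes, Rbm12b1 first, its level is uncertain. The other untested genes, Rbm11, Rbm44, Rbm46, Rbmxl2, Rbm8a2 and Rbm31y, were near or at 0.

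Annotated transcript types, which no expression value enters, were counted for each family. GENCODE vM21 lists a transcript subject to nonsense-mediated decay for 9 of 10 tested SR genes, 9 of 18 hnRNP genes and 12 of 32 RBM genes, or 30 of the 60, against 28.7% of 11597 tested protein-coding genes. A retained-intron transcript is listed for 66.7% of the 60, against 59.1%. The 60 have a median of 6.0 annotated transcripts (7.5 for the SR genes), against 5.0, and the shares were not adjusted for this. Among the 6 called genes Srsf7, Hnrnph3, Rbmx and Rbm5 have an annotated decay transcript, and Srsf10 and Rbm47 have none. The deposited values are per gene, so the use of these transcripts was not measured.

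The shares of all tested genes for the lists of other splicing genes are again 6.1% called higher, 3.88% called lower and 50.4% below 0. At an unadjusted p under 0.05 (limma), 2116 of all 13507 tested genes were higher and 1781 lower. The 10 kinases and phosphatase that act on SR proteins gave 0 calls (limma; at an unadjusted p under 0.05, 1 higher and 2 lower). Their median log2 change was -0.06, and 7 were below 0, or 70.0%. Of 21 SR-related and splice site recognition genes 2 were called lower, or 9.52%, and 17 were below 0, or 81.0% (median -0.14). These were Tra2a, a splicing activator with an arginine- and serine-rich domain, at 8.65 ± 0.90 FPKM in Wtap-BKO and 13.97 ± 1.41 FPKM in Wtap flox/flox (log2 change -0.69, limma, adjusted p = 0.022), and Luc7l2, a U1 snRNP-associated protein, at 14.6 ± 0.28 FPKM in Wtap-BKO and 20.5 ± 2.01 FPKM in Wtap flox/flox (log2 change -0.48, limma, adjusted p = 0.034).

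Of 32 spliceosome core genes 0 were called lower and 1 was called higher, or 3.12%. This was the helicase Dhx8, at 7.55 ± 0.07 FPKM in Wtap-BKO and 5.42 ± 0.60 FPKM in Wtap flox/flox (log2 change 0.48, limma, adjusted p = 0.045). The core list had a median of -0.06 with 19 below 0, or 59.4% (limma; at an unadjusted p under 0.05, 1 higher and 4 lower). Of 28 other splicing regulators 2 were called lower, or 7.14%, 1 was called higher, or 3.57%, and 23 were below 0, or 82.1% (median -0.17). Mbnl2, a muscleblind protein, averaged 13.2 ± 0.70 FPKM in Wtap-BKO and 18.8 ± 0.85 FPKM in Wtap flox/flox (log2 change -0.50, limma, adjusted p = 0.023), and Qk, a STAR-family protein, averaged 16.5 ± 0.94 FPKM in Wtap-BKO and 21.5 ± 0.52 FPKM in Wtap flox/flox (log2 change -0.38, limma, adjusted p = 0.044). Pcbp1, a poly-C-binding protein, went the other way, at 98.7 ± 5.13 FPKM in Wtap-BKO and 73.0 ± 4.87 FPKM in Wtap flox/flox (log2 change 0.43, limma, adjusted p = 0.037). The 16 genes of the exon junction complex and nonsense-mediated decay gave 0 calls (limma; at an unadjusted p under 0.05, 0 higher and 2 lower). Their median was -0.06, and 10 were below 0, or 62.5%.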

How the data were processed

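The splicing regulator genes and the gene lists were chosen with earlier results of these data known. iBAT libraries, 3 a group, were sequenced as pairs on a NovaSeq instrument. The authors aligned reads with HISAT2 2.0.5 to GRCm38.p6, counted them with featureCounts 1.5.0-p3 and used DESeq2 1.16.1, per the labels. For the strand setting, the sources used here give nothing. The deposited FPKM are scaled by gene length and by median-of-ratios factors, which were recovered from the values. FPKM times length was divided by the smallest nonzero value of each library, taken as 1 read. The result was a whole number for 100% of nonzero values, within 0.01, which allowed voom as an alternative.

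The model was fitted to log2(FPKM + 0.1), a scale that shrinks changes of low genes, with limma 3.58.1 in R 4.3.3, with group as the only term, a variance trend, two-sided, and Benjamini-Hochberg adjustment over 13507 genes (mean of at least 0.5 FPKM and 10 reads). The script was tested on simulated data. Named genes were the called members, the highest and the smallest-p member of each role group, and called genes of the other lists, and other members were named after their values were seen. Replicate pairs differed by at least 25.0 chi-square per degree of freedom, so each library counted once. Exon overlap and shared 100-base windows came from GENCODE vM21, whose exon lengths equalled the deposited lengths for all 70 genes. These shares are given for only some of the genes. P-values measure the spread between these libraries only, and 0 other sample columns were left out.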

Additional observations from a re-analysis of the deposited data

How the results depend on the processing

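Over the 15 named genes and 17 alternatives, 202 of 255 values kept their direction and side of the threshold, 50 lost the call, 3 gained it (Hnrnph1 with TMM factors, Rbm7 with library size alone and Hnrnpll with voom) and 0 reversed. Only the 6 called genes could lose a call, and the 202 include genes that stayed uncalled. Of the 17 alternatives Rbm47 kept its call in 13 and Srsf10 in 9. Hnrnph3 and Rbmx kept theirs in 8 each, and Srsf7 and Rbm5 in 7 each. The main fit called 1 splicing regulator higher, 5 lower and 1348 of all genes. Scaling by library size alone gave 3 higher (Rbm7, Rbmxl1 and Rbm47) and 0 lower, and 78.2% of all calls were then higher, against 61.1%. At an unadjusted p under 0.05 (limma) that scaling gave 4 higher, 11 lower and 3676 of all genes. Without a filter 1 was lower and 687 of all genes were called. Without both libraries with muscle transcripts limma called 0 higher, 0 lower and 0 of all genes (at an unadjusted p under 0.05, 1 higher, 7 lower and 2253 of all), while 46 of 60 were below 0 with a median of -0.17. An adjusted p under 0.1 gave 3, 12 and 2535, and an unadjusted p under 0.05 gave 4, 16 and 3897.

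With a replicate block 0 were higher, 0 lower and 308 of all genes were called, 68.5% of them higher. At an unadjusted p under 0.05 (limma) the block gave 3 higher, 14 lower and 3297 of all genes. Same-numbered libraries deviated with correlations of -0.05, -0.40 and -0.27. Of the 3 Wtap-BKO libraries 0 correlated best with the control of their own number. These values gave no sign that the numbers pair the libraries. Leaving out 1 library at a time gave 0 to 1 higher, 0 to 4 lower and 307 to 1277 of all genes. The cause of these differences was not tested.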
